A study of Mus musculus with 12 samples.

Results

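The proteasome genes were the 49 genes, of 23284 in the count tables, whose symbol starts with Psm, a letter from a to g and a digit. They comprised 19 genes of the core particle (8 alpha-type Psma and 11 beta-type Psmb), 20 of the regulatory particle (6 Psmc ATPases and 14 Psmd), 4 Psme activator genes and 4 Psmg assembly factor genes. The other two were Psmf1, which encodes a proteasome inhibitor, and Psmc3ip, which encodes a factor of meiotic recombination and no part of the proteasome and entered through its symbol alone. RNA had been measured in 12 libraries of mouse embryos, 3 in each of 4 groups: 4C embryos injected with the LINE1 ASO, 4C embryos injected with the RC ASO, early 2C embryos injected with the LINE1 ASO, and early 2C embryos injected with the RC ASO. An ASO is an antisense oligonucleotide. The LINE1 ASO is named for the LINE1 retrotransposon, whose own RNA was not analysed here, and the labels do not spell out RC. All embryos came from C57BL/6J matings (strain label C57/Bl6), with superovulated females of 5 to 8 weeks and males of 2 to 6 months, and every zygote was injected with an ASO at 0.75 mM and cultured in KSOM, so no uninjected embryo is among these groups. The early 2C stage was sampled roughly 33 h past hCG, which is 9 h past injection, and the 4C stage once embryos had been kept for 2 days in culture. Nothing in the labels says that the libraries of a group were separate pools of embryos, and the spread behind every p-value may be a technical one. In bulk embryos, fewer cells of a type and less RNA per cell cannot be told apart, and without a spike-in all levels are relative to the other RNA of the same library.

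The proteasome degrades proteins tagged with ubiquitin. Its barrel-shaped core is built of rings of alpha and beta subunits, and the beta subunits Psmb5, Psmb6 and Psmb7 carry the chymotrypsin-like, caspase-like and trypsin-like sites. A regulatory particle, made of an ATPase base and a lid, binds the ends of the core, unfolds the substrate and removes its ubiquitin. The Psme proteins are alternative caps, and dedicated chaperones (the Psmg proteins for the core, and Psmd5, Psmd9 and Psmd10 for the base) help assembly and leave the finished particle. In the mouse, maternal RNA is degraded and the embryo's own genome is transcribed around the 2-cell stage, when stored proteins are also broken down.

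The promoters of 5 members whose RNA the comparisons turn on are shown from 250 bases before to 50 bases after the annotated start (RefSeq, GRCm38.p6), on the strand of the gene. Psmb5 and Psmd13 had among the largest gains at 4C, Psmd10 and Psme4 were lower at 4C, and Psmd8 was the one member called in opposite directions between the stages in LINE1 ASO and RC embryos. Capitals mark a match on either strand to TGACNNNGC, the core of the antioxidant response element that the transcription factor Nfe2l1 is known to bind in proteasome gene promoters.
Psmb5, chr14:54617946-54618245, minus strand: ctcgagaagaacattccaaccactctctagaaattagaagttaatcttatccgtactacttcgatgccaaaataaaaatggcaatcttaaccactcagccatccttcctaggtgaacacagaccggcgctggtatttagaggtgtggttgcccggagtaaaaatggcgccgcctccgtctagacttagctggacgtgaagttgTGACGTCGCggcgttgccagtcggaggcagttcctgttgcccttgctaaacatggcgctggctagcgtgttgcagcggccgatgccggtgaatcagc
Psmd13, chr7:140882144-140882443, plus strand: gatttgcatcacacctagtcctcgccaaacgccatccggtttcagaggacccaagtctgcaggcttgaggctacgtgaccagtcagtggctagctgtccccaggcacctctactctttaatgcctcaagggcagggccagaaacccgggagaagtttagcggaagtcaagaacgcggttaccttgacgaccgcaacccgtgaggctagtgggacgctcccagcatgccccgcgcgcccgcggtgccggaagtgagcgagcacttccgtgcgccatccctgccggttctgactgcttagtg
Psmd10, chrX:140956662-140956961, minus strand: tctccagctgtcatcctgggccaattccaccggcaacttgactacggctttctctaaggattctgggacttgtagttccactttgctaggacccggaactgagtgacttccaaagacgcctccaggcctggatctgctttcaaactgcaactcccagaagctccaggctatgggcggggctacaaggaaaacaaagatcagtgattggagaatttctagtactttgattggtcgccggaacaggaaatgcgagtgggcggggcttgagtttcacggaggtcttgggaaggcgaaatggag
Psme4, chr11:30771525-30771824, plus strand: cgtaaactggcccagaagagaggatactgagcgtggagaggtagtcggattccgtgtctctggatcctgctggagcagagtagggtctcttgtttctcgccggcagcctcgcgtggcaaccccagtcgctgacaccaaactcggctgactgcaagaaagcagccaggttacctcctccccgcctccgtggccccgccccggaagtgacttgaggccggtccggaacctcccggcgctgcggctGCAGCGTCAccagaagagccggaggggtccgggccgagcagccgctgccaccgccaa
Psmd8, chr7:29180624-29180923, minus strand: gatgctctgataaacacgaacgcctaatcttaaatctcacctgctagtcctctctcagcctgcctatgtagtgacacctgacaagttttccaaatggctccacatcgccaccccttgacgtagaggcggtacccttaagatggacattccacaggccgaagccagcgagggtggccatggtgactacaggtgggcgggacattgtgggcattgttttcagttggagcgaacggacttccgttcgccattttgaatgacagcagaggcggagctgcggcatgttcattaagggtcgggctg
The match of Psmb5 starts 47 bases before the start of the gene, and that of Psme4 starts 7 bases before it and reads on the opposite strand. No match lies in the windows shown for Psmd13, Psmd10 and Psmd8.

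Promoters of 41 of the 49 members were in the RefSeq table. TGACNNNGC was present in 6 of these 41 genes (14.6%: Psmb5, Psmb6, Psmc6, Psmd9, Psmd12 and Psme4), against 14% of the 27025 genes with a promoter of the same length. It was found in 4 of 26 members that were higher at 4C in RC embryos and in 2 of 7 that were lower, so members with the motif moved in both directions. The core of the interferon-stimulated response element, GAAA and GAAA with any pair of bases between them, was present in 5 of the 41 genes (12.2%), against 3.99% of all genes. These were Psmb3, Psmd4, Psmd9, Psme1 and Psmg4, while Psmb8, Psmb9, Psmb10 and Psme2 had no match. The difference between these shares was not tested. CCAAT was present in 15 of the 41 (36.6%), against 41.1% of all genes. All 3 motifs were searched on both strands, a CCAAT match inside another motif's match being counted for both, and each match is a string of letters and not a shown binding site.

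Reads counted in the 23284 genes ranged from 19160716 to 51854939 per library. The oocyte and maternal marker list (7 genes) summed to 269–366 CPM in 4C LINE1 ASO libraries and 193–258 CPM in 4C RC libraries, against 3170–3691 CPM in early 2C LINE1 ASO libraries and 3167–3414 CPM in early 2C RC libraries. Zp3 changed little, with 32.0–42.6 CPM in 4C RC libraries and 39.5–58.8 CPM in early 2C RC libraries, which overlapped. Every other gene of this list was lower in all 4C libraries than in any early 2C library. Zygotic 2-cell genes (5 genes) summed to 49.2–153 CPM at 4C and 27.7–46.4 CPM at early 2C, but these genes did not move together. Tdpoz4 alone had 37.6–65.7 CPM at 4C and at most 0.648 CPM at early 2C. In RC embryos Zscan4c had 0–0.423 CPM at 4C and 1.33–2.45 CPM at early 2C. Zscan4d likewise fell there, with 0.233–0.523 CPM at 4C and 6.13–7.43 CPM at early 2C, while Zfp352 and Usp17l5 overlapped between the stages. In LINE1 ASO embryos Zscan4c had 9.38, 8.71 and 0.217 CPM at 4C and 0.764–1.65 CPM at early 2C. Zscan4d had 1.62, 8.14 and 0.506 CPM at 4C and 3.07–5.31 CPM at early 2C in those embryos. Cleavage-stage genes (6 genes) summed to 815–1160 CPM at 4C and 1475–1682 CPM at early 2C. Most of this sum was Klf17, with 757–927 CPM at 4C and 1211–1425 CPM at early 2C, and Pou5f1 was also lower at 4C. Tdgf1 and Nanog went the other way, with at most 0.121 and 0.422 CPM at early 2C. At 4C, Tdgf1 had 12.5–33.8 CPM in LINE1 ASO libraries and 96.2–174 CPM in RC libraries. Nanog had 1.24–1.77 and 4.14–5.59 CPM, and Pou5f1 had 39.7–105 and 114–198 CPM, in the same groups. These genes were thus lower in LINE1 ASO embryos at 4C without overlap. Sox2 was higher there, with 1.11–2.93 CPM against 0.141–0.966 CPM, while Klf17 and Cdx2 overlapped between the ASO groups. Cdx2 and Sox2 overlapped between the stages. Of cells that could come with embryos, all 8 cumulus, 5 sperm and 8 blood and immune markers were in the tables, and their sums were at most 4.16, 5.08 and 10.1 CPM in any library, with the globins Hba-a1 and Hbb-b1 at 0 in all 4 groups.

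The first question was how proteasome RNA differed between the stages. The 49 members took 0.549–0.580% of all counts in 4C LINE1 ASO libraries and 0.515–0.541% in 4C RC libraries, against 0.304–0.325% in early 2C LINE1 ASO libraries and 0.307–0.342% in early 2C RC libraries. Most subunits of the particle were higher at 4C: of 31 constitutive subunits of the core, base and lid, 25 were higher and 1 lower at 4C in RC embryos, and 25 were higher and 2 lower in LINE1 ASO embryos. Of all genes tested, 36.1% were higher and 36.6% lower in RC embryos, and 37.6% and 34.2% in LINE1 ASO embryos. The members outside the particle went both ways. The activators Psme3 and Psme4, the inhibitor Psmf1 and the base chaperones Psmd9 and Psmd10 were lower at 4C in both ASO groups, while the activator Psme2 and the core chaperone Psmg3 were higher. Members were called at an adjusted p under 0.05 over all genes tested in edgeR's quasi-likelihood test.

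In RC embryos, 47 of the 49 members passed the filter on low counts, and 33 were higher and 7 lower at 4C. Over all 15760 genes tested, 72.7% were called, 36.1% higher and 36.6% lower. The median log2 fold change was 1.55 over the members tested, against 0.09 over all genes tested. Psma8, Psmb10, Psme1 and Psmg2 passed only through the 4C libraries and so had to be higher there. Among the 43 members that passed in the early 2C libraries alone, 29 were higher (67.4%) and 7 lower (16.3%), with a median of 1.27, against 33.1% higher, 42.3% lower (75.4% called) and a median of -0.39 for the 13564 genes that passed in the same way. The members' counts in LINE1 ASO embryos came to 33 higher and 7 lower of 47, beside 71.8% of all genes called, 37.6% higher and 34.2% lower. Of the 43 members, 29 were higher and 7 lower there, with a median of 1.08, against 33.8% higher, 39.7% lower (73.5% called) and a median of -0.23 for the corresponding genes. The 2 comparisons share no library. In them 38 members were called in the same direction, 32 higher (the 4 that passed only through the 4C libraries among them) and 6 lower, and Psmd8 was called in opposite directions. Most genes were called in each comparison, and the same agreement was not counted over all genes. Nothing particular to the members is therefore read from it.

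**Figure D1:**
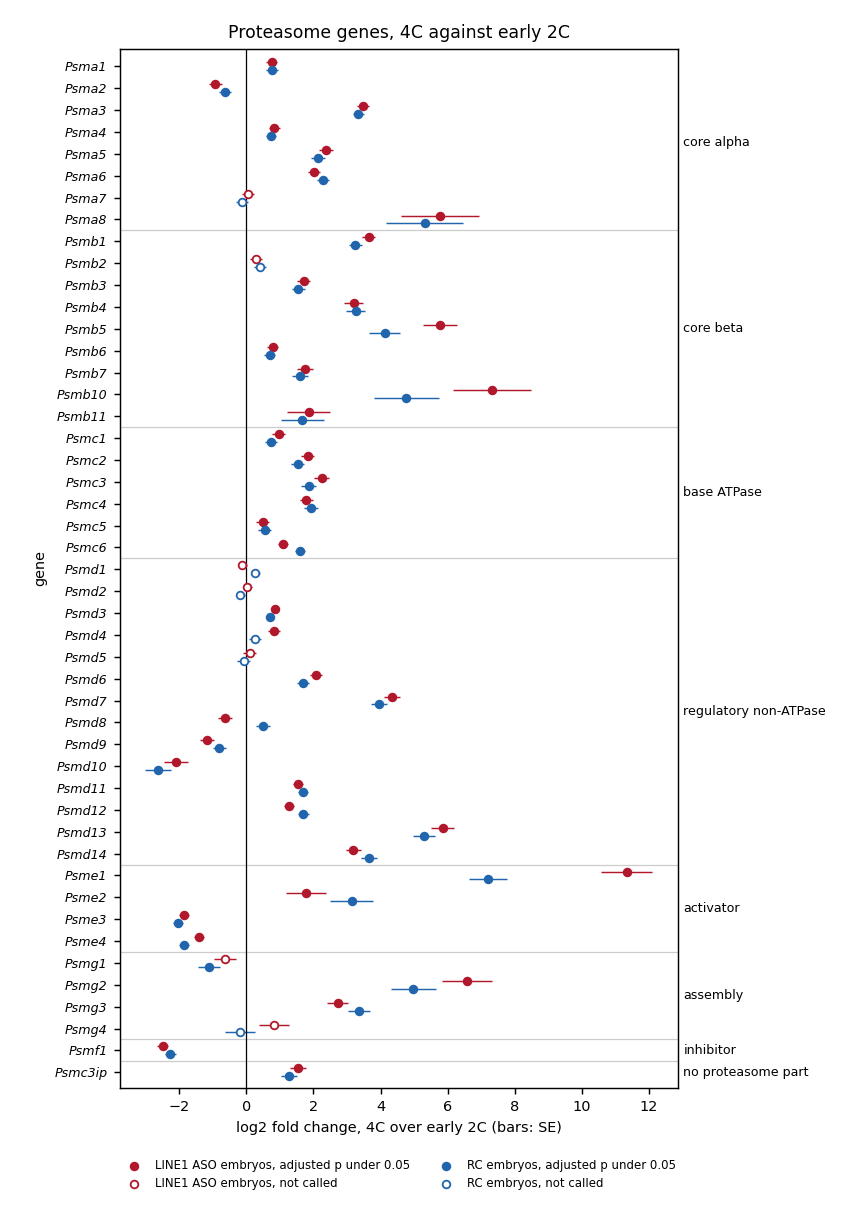
Log2 fold change of 4C over early 2C for the 47 members tested, by class, in LINE1 ASO embryos (red) and RC embryos (blue), each with its SE from edgeR; filled points were called at an adjusted p under 0.05. Most core and ATPase genes sit right of 0, Psme3, Psme4, Psmf1, Psmd9 and Psmd10 sit left of 0 in both, and Psmd8 is the one gene called on both sides.

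The stages stand in separate tables of raw counts, so any difference in handling between the stages and the stage itself cannot be told apart. The maternal marker sum given above was also lower at 4C in every library, and its part in the stage changes was not tested. When a trend over all genes with exonic length and GC content was subtracted, the members' median was 1.34 in RC embryos and 1.13 in LINE1 ASO embryos, and 39 of 40 and 36 of 40 called members kept their sign. The exceptions were Psmb6 in both, and Psmc5, Psmd3 and Psmd4 in LINE1 ASO embryos.

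Among the core genes of the alpha type, which form the outer rings and the gate, 5 of the 7 that passed the filter in the early 2C libraries were higher at 4C in RC embryos and 1 was lower, beside the 33.1% higher and 42.3% lower of all genes that passed in this way. Psma3, an alpha ring subunit, had the largest gain among the constitutive ones, with 197, 176 and 186 CPM in 4C RC embryos, against 16.5, 20.5 and 18.4 CPM in early 2C RC embryos. All 4C values of Psma3 lay above all early 2C values (log2 fold change 3.34, SE 0.168, edgeR adjusted p = 8.84e-11). Psma5 and Psma6 followed with log2 fold changes of 2.13 and 2.28, and Psma1 and Psma4 with 0.77 and 0.73. Psma2 was the one constitutive core subunit that fell, with 74.0, 43.8 and 62.9 CPM in 4C RC embryos, against 87.4, 105 and 88.6 CPM in early 2C RC embryos. Its groups did not overlap (log2 fold change -0.64, SE 0.188, edgeR adjusted p = 0.00663). Psma7 had 112, 83.7 and 131 CPM in 4C RC embryos, against 114, 140.4 and 102 CPM in early 2C RC embryos, and these values overlapped (log2 fold change -0.12, SE 0.181, edgeR adjusted p = 0.549). Its germ-cell counterpart Psma8, a testis-specific form in the adult mouse, stayed low, with 2.56, 3.25 and 2.74 CPM in 4C RC embryos, against 0.211, 0 and 0 CPM in early 2C RC embryos.

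Of the 8 beta-type genes that passed in the early 2C libraries, 7 were higher at 4C in RC embryos and none was lower, beside the same shares of all genes. Their 3 catalytic subunits differed in size of change. Psmb5, the chymotrypsin-like subunit, had 39.2, 31.9 and 35.6 CPM in 4C RC embryos, against 1.56, 3.44 and 1.07 CPM in early 2C RC embryos. Every 4C library lay far above the highest early 2C library (log2 fold change 4.13, SE 0.460, edgeR adjusted p = 7.49e-07). Psmb6, the caspase-like subunit, had 71.9, 63.3 and 69.3 CPM in 4C RC embryos, against 36.8, 47.9 and 41.7 CPM in early 2C RC embryos. Its groups lay apart but close to each other (log2 fold change 0.69, SE 0.166, edgeR adjusted p = 0.00145). Psmb7, the trypsin-like subunit, had 115, 81.2 and 78.3 CPM in 4C RC embryos, against 32.7, 37.0 and 20.7 CPM in early 2C RC embryos, with no overlap (log2 fold change 1.60, SE 0.239, edgeR adjusted p = 1.81e-05). Part of the Psmb7 exons (34.9% of their length) overlaps the exons of Nek6 on the opposite strand, and it is not stated whether counting used strand. For Psmb5, 12.1% of the exon length overlaps Mir686 on the same strand, and GENCODE M21 lists 4 named Psm pseudogenes, of Psmb5, Psmb6 and Psmb7, with which reads may have been shared. In LINE1 ASO embryos Psmb5 had 28.6, 27.7 and 27.5 CPM in 4C LINE1 ASO embryos, against 0.173, 0.724 and 0.701 CPM in early 2C LINE1 ASO embryos, again without overlap (log2 fold change 5.78, SE 0.514, edgeR adjusted p = 6.22e-08).

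Per kilobase of exon, the ratio of Psmb5 to Psmb6 CPM was 0.353–0.474 in 4C LINE1 ASO libraries and 0.446–0.484 in 4C RC libraries, against 0.00433–0.0172 in early 2C LINE1 ASO libraries and 0.0227–0.0638 in early 2C RC libraries. The catalytic subunits were thus far more unequal in RNA level at early 2C in every library. The ratio of Psmb5 to Psmb7 on the same scale was 0.438–0.586 in 4C RC libraries, against 0.0616–0.120 in early 2C RC libraries. Among the structural beta subunits, Psmb1 and Psmb4 had log2 fold changes of 3.24 and 3.25 in RC embryos, Psmb3 had 1.55, and Psmb2 had 0.40, which was not called (edgeR adjusted p = 0.0659).

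The alternative catalytic subunits were rare at both stages. Psmb8 and Psmb9, the immunoproteasome subunits that replace Psmb5 and Psmb6 in immune cells, did not pass the filter. Psmb8 had at most 6 counts in a library. Psmb9 had 2 counts in 4C LINE1 ASO libraries, 15 counts in 4C RC libraries, all of them in replicate 2, 18 counts in early 2C LINE1 ASO libraries and 0 counts in early 2C RC libraries, and 15.7% of its exons overlap those of Tap1. Psmb10, which replaces Psmb7 and passed only through the 4C libraries, had 4.66, 1.13 and 5.23 CPM in 4C RC embryos, against 0.211, 0.183 and 0 CPM in early 2C RC embryos. Psmb11, the thymus form of Psmb5, had 1.68, 3.67 and 3.34 CPM in 4C RC embryos, against 0.887, 0.330 and 1.52 CPM in early 2C RC embryos and its call (edgeR adjusted p = 0.0293) was lost in 4 of 6 fits without 1 library, with log2 fold changes from 1.27 to 2.27. Psmb10 in LINE1 ASO embryos came to 329 counts at 4C and 2 counts at early 2C, a ratio per normalised library of 194 with a 95% counting interval of 53.3 to 1611. The interval covers counting error and not the spread between libraries, and it is no test for a gene that passed only through 4C.

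**Figure D2:**
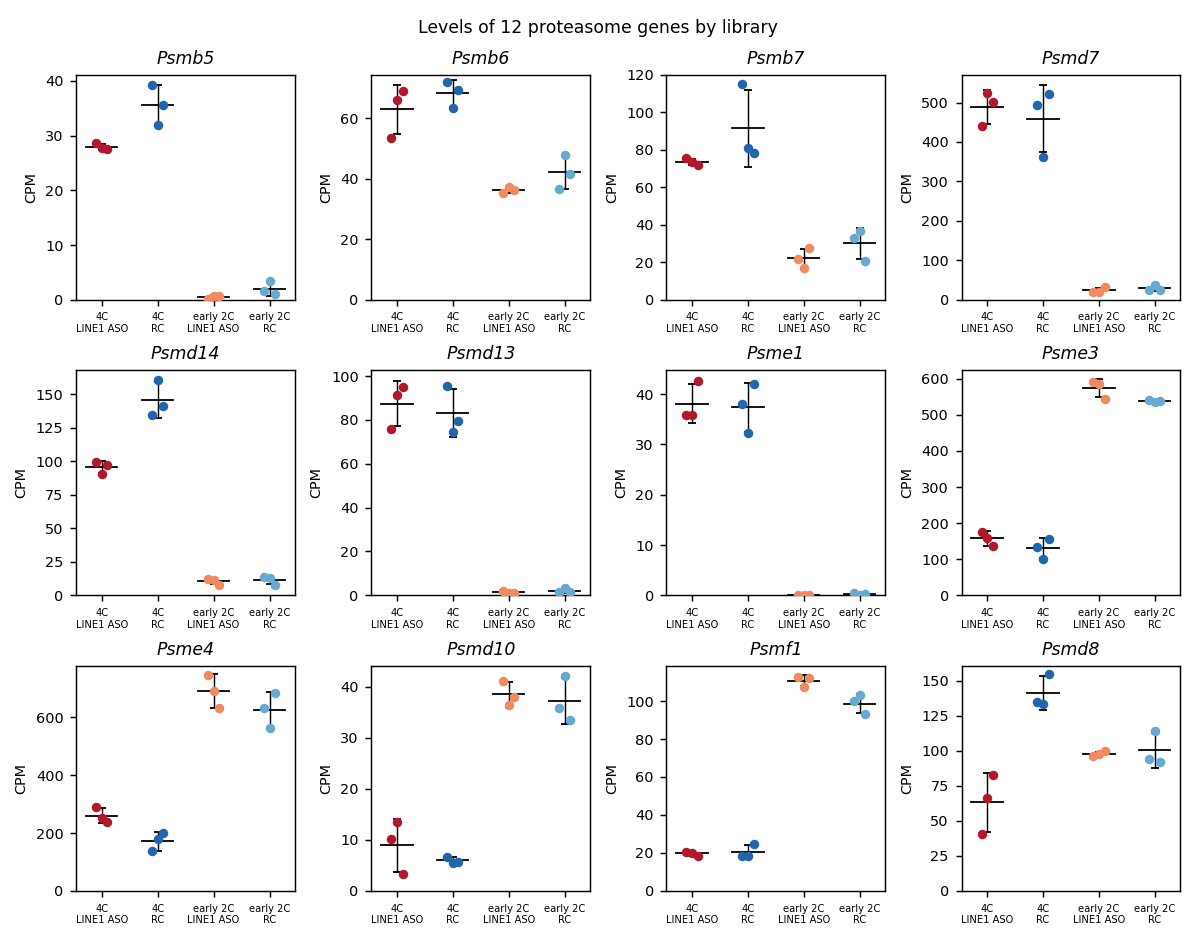
CPM of 12 members in each of the 12 libraries (points), with the group mean (line) and SD (bar, n = 3), for 4C LINE1 ASO, 4C RC, early 2C LINE1 ASO and early 2C RC. Psmb5, Psmd7, Psmd13, Psmd14 and Psme1 are near the floor of their panels at early 2C, Psme3, Psme4, Psmd10 and Psmf1 are higher there, and Psmd8 has its 3 lowest values in 4C LINE1 ASO libraries.

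All 6 ATPases of the base, which unfold the substrate and thread it into the core, were called higher at 4C in both ASO groups. Of all genes that passed in the early 2C libraries, 33.1% were higher in RC embryos and 33.8% in LINE1 ASO embryos. The log2 fold changes ran from 0.54 for Psmc5 to 1.92 for Psmc4 in RC embryos. Psmc4 had 97.0, 91.3 and 95.2 CPM in 4C RC embryos, against 24.6, 25.7 and 24.3 CPM in early 2C RC embryos. Psmc1 had 242, 167 and 209 CPM in 4C RC embryos, against 119.6, 142 and 108 CPM in early 2C RC embryos, a smaller gain without overlap (log2 fold change 0.74, SE 0.185, edgeR adjusted p = 0.00201). Psmc5 had 147, 82.4 and 110.5 CPM in 4C RC embryos, against 85.8, 81.3 and 66.2 CPM in early 2C RC embryos, and here the groups overlapped. Its call (edgeR adjusted p = 0.0222) was lost in 2 of 6 fits without 1 library, with log2 fold changes from 0.31 to 0.73. In LINE1 ASO embryos the call of Psmc5 was lost in 5 of 6 such fits, with log2 fold changes from 0.28 to 0.59. Over all 14 alternatives it was lost there in 9.

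Of the 14 Psmd genes, all of which passed in the early 2C libraries, 8 were higher and 2 lower at 4C in RC embryos. This stands beside 33.1% higher and 42.3% lower of all genes that passed in this way. Among these 14, the 3 with the largest gains encode lid subunits. Psmd13 had 95.6, 74.6 and 79.4 CPM in 4C RC embryos, against 1.61, 3.19 and 1.49 CPM in early 2C RC embryos. Early 2C libraries thus had almost none of it (log2 fold change 5.30, SE 0.331, edgeR adjusted p = 8.99e-10). Psmd7, which pairs with the deubiquitinase in the lid, had 493, 362 and 523 CPM in 4C RC embryos, against 25.1, 38.7 and 25.5 CPM in early 2C RC embryos. Its levels at 4C lay far above those at early 2C in every library (log2 fold change 3.95, SE 0.238, edgeR adjusted p = 6.42e-10). Psmd14, the lid's deubiquitinase, had 135, 161 and 141 CPM in 4C RC embryos, against 13.7, 12.9 and 8.00 CPM in early 2C RC embryos, likewise without overlap (log2 fold change 3.66, SE 0.228, edgeR adjusted p = 8.81e-10). Psmd6, Psmd11 and Psmd12, also of the lid, had log2 fold changes of 1.69, 1.69 and 1.70, which lie within 1 SE of each other. For Psmd13, 7.6% of the exon length overlaps Sirt3.

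The scaffold subunits and the ubiquitin receptor Psmd4 were not called in RC embryos. Psmd1 and Psmd2, the scaffolds of the base, had log2 fold changes of 0.26 and -0.18 in RC embryos (edgeR adjusted p = 0.0940 and 0.255). Psmd4, a ubiquitin receptor and the most abundant constitutive subunit per kilobase at early 2C, had 394, 287 and 403 CPM in 4C RC embryos, against 256, 369 and 283 CPM in early 2C RC embryos, with overlap (log2 fold change 0.26, SE 0.172, edgeR adjusted p = 0.191). In LINE1 ASO embryos Psmd4 had 361, 374 and 436 CPM in 4C LINE1 ASO embryos, against 195, 211 and 253 CPM in early 2C LINE1 ASO embryos, without overlap (log2 fold change 0.83, SE 0.173, edgeR adjusted p = 0.000484). The difference of these 2 stage effects, tested as an interaction, was 0.57 on the log2 scale and was not called (edgeR adjusted p = 0.237).

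None of the 3 chaperones of the base was higher at 4C. Psmd10, known as gankyrin, had 6.66, 5.55 and 5.71 CPM in 4C RC embryos, against 35.9, 42.2 and 33.4 CPM in early 2C RC embryos. All early 2C libraries were several times higher (log2 fold change -2.64, SE 0.374, edgeR adjusted p = 1.10e-05). Psmd9 had 31.2, 19.9 and 26.5 CPM in 4C RC embryos, against 48.2, 44.4 and 43.8 CPM in early 2C RC embryos, without overlap (log2 fold change -0.81, SE 0.197, edgeR adjusted p = 0.00159). Psmd5 had 33.2, 48.4 and 54.2 CPM in 4C RC embryos, against 51.3, 42.1 and 50.1 CPM in early 2C RC embryos, with overlap (edgeR adjusted p = 0.719). Among the core chaperones, Psmg3 had 19.1, 20.9 and 26.2 CPM in 4C RC embryos, against 2.49, 2.05 and 1.94 CPM in early 2C RC embryos and was higher (log2 fold change 3.35, SE 0.330, edgeR adjusted p = 1.72e-07). Psmg2, which passed only through the 4C libraries, had 26.9, 8.94 and 10.5 CPM in 4C RC embryos, against 0.211, 0.623 and 0.610 CPM in early 2C RC embryos. Its partner in the same chaperone pair, Psmg1, went the other way, with 12.7, 6.16 and 10.8 CPM in 4C RC embryos, against 19.2, 24.3 and 20.5 CPM in early 2C RC embryos (log2 fold change -1.11, SE 0.328, edgeR adjusted p = 0.00660). Psmg4, the partner of Psmg3, had 4.61, 5.55 and 3.38 CPM in 4C RC embryos, against 3.63, 6.89 and 5.03 CPM in early 2C RC embryos, and the groups overlapped (edgeR adjusted p = 0.694). In LINE1 ASO embryos Psmg1 had a log2 fold change of -0.64 and was not called (edgeR adjusted p = 0.0880).

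Of the 3 activator genes that passed in the early 2C libraries, Psme2 was higher and Psme3 and Psme4 were lower at 4C in RC embryos. Among all genes that passed in this way, 33.1% were higher and 42.3% lower. Psme3, the cap found in the nucleus, had 134, 101 and 157 CPM in 4C RC embryos, against 542, 535 and 537 CPM in early 2C RC embryos. The 3 early 2C libraries differed little among themselves and lay well above all 4C libraries (log2 fold change -2.04, SE 0.158, edgeR adjusted p = 1.09e-08). Psme4, a large single-chain cap known for histone turnover in spermatogenesis, had 136, 179 and 199.6 CPM in 4C RC embryos, against 632, 562 and 682 CPM in early 2C RC embryos, also without overlap (log2 fold change -1.86, SE 0.156, edgeR adjusted p = 2.59e-08). Psme1 and Psme2 together form the interferon-induced cap. Psme1, which passed only through the 4C libraries, had 38.0, 32.2 and 41.9 CPM in 4C RC embryos, against 0.465, 0 and 0.305 CPM in early 2C RC embryos, from 19 counts in all at early 2C. Psme2 had 6.01, 6.96 and 6.24 CPM in 4C RC embryos, against 0.169, 0.586 and 1.41 CPM in early 2C RC embryos, without overlap (log2 fold change 3.13, SE 0.642, edgeR adjusted p = 0.000405). In LINE1 ASO embryos Psme1 had 3215 counts at 4C and 1 count at early 2C, a ratio per normalised library of 3797 with a 95% counting interval of 681 to 150000. That interval leaves out the spread between libraries, and since the filter was passed only through 4C it is no test of a difference.

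The inhibitor Psmf1 had 18.2, 18.3 and 24.5 CPM in 4C RC embryos, against 99.8, 103 and 93.0 CPM in early 2C RC embryos. It was lower at 4C in every library (log2 fold change -2.28, SE 0.166, edgeR adjusted p = 5.03e-09). Psmc3ip, the recombination factor, had 36.9, 38.2 and 36.4 CPM in 4C RC embryos, against 13.6, 19.6 and 12.9 CPM in early 2C RC embryos, and 29.8% of its exons overlap Mlx on the opposite strand.

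The members with the largest changes in LINE1 ASO embryos were mostly those named above. Psmd13 had 75.6, 91.6 and 95.2 CPM in 4C LINE1 ASO embryos, against 2.12, 1.29 and 1.02 CPM in early 2C LINE1 ASO embryos (log2 fold change 5.85, SE 0.339, edgeR adjusted p = 4.82e-10). Psmd7 had 439.7, 524 and 501 CPM in 4C LINE1 ASO embryos, against 19.7, 20.7 and 32.2 CPM in early 2C LINE1 ASO embryos (log2 fold change 4.34, SE 0.243, edgeR adjusted p = 3.33e-10). Both had no overlap between the stages, as in RC embryos. Psmb1, a structural beta subunit, had 109.8, 127 and 118 CPM in 4C LINE1 ASO embryos, against 10.04, 9.78 and 8.58 CPM in early 2C LINE1 ASO embryos (log2 fold change 3.64, SE 0.193, edgeR adjusted p = 1.80e-10). Psmd14 had 99.6, 90.4 and 97.3 CPM in 4C LINE1 ASO embryos, against 12.2, 11.3 and 8.06 CPM in early 2C LINE1 ASO embryos (log2 fold change 3.18, SE 0.223, edgeR adjusted p = 3.96e-09). These 4 genes were low in all early 2C LINE1 ASO libraries. On the other side, Psme3 had 177, 160.0 and 137 CPM in 4C LINE1 ASO embryos, against 591, 586 and 545 CPM in early 2C LINE1 ASO embryos (log2 fold change -1.86, SE 0.157, edgeR adjusted p = 3.39e-08). Psme4 had 289, 252 and 239 CPM in 4C LINE1 ASO embryos, against 748, 692 and 632 CPM in early 2C LINE1 ASO embryos (log2 fold change -1.41, SE 0.153, edgeR adjusted p = 6.28e-07). For both nuclear caps, every early 2C library lay above every 4C library. Psmf1 had 20.6, 20.1 and 18.3 CPM in 4C LINE1 ASO embryos, against 113, 107 and 112 CPM in early 2C LINE1 ASO embryos (log2 fold change -2.49, SE 0.167, edgeR adjusted p = 2.25e-09). Psmd10 had 10.2, 13.5 and 3.29 CPM in 4C LINE1 ASO embryos, against 41.1, 36.4 and 38.1 CPM in early 2C LINE1 ASO embryos (log2 fold change -2.10, SE 0.364, edgeR adjusted p = 8.88e-05). The 4C values of Psmd10 differed several-fold among themselves and still lay below all early 2C values. Psma2 and Psmd9 were lower as well, with log2 fold changes of -0.93 and -1.17.

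The make-up of the proteasome RNA differed between the stages. Activator genes took 8.69–10.4% of the members' counts in 4C LINE1 ASO libraries and 5.93–7.92% in 4C RC libraries, against 33.1–39.4% in early 2C LINE1 ASO libraries and 30.3–35.9% in early 2C RC libraries. Core genes took 24.7–26.5% in 4C LINE1 ASO libraries and 25.3–27.6% in 4C RC libraries, against 14.5–16.5% in early 2C LINE1 ASO libraries and 15.4–17.9% in early 2C RC libraries. Regulatory genes took 60.9–64.5% and 64.3–64.6% in the 4C LINE1 ASO and 4C RC libraries, against 41.0–46.0% and 44.8–47.5% in the early 2C LINE1 ASO and early 2C RC libraries. Assembly factors stayed near 1%, between 0.615% and 1.20% in all 12 libraries. The CPM sum of Psme3 and Psme4 was 270–356 in 4C RC libraries, against 1097–1220 in early 2C RC libraries, while that of the 31 constitutive subunits was 4138–4788 in 4C RC libraries, against 1921–2235 in early 2C RC libraries. Of the activators, per kilobase of exon, Psme3 exceeded Psme1 by 1.34 to 2.05 times in 4C LINE1 ASO libraries and 1.31 to 1.56 times in 4C RC libraries. At early 2C the same ratio was 487 and 735 in the 2 RC libraries with any Psme1 count.

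**Figure D3:**
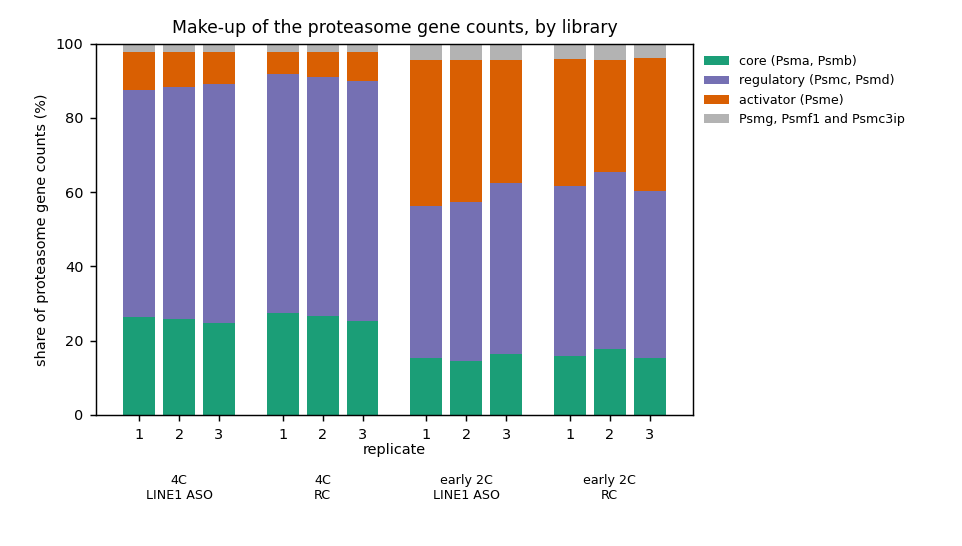
Share of the 49 members' counts (percent, bars starting at 0) taken by core, regulatory, activator and other genes in each of the 12 libraries, grouped as 4C LINE1 ASO, 4C RC, early 2C LINE1 ASO and early 2C RC. The activator share is 5.93–10.4% in the 6 libraries at 4C, against 30.3–39.4% in the 6 libraries at early 2C.

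The levels of the 31 constitutive subunits, which the assembled particle holds in fixed proportion, were nearer to each other at 4C. The SD of log2(CPM per kilobase + 0.1) over these subunits was 0.84–0.92 in 4C LINE1 ASO libraries and 0.77–0.81 in 4C RC libraries, against 1.79–1.87 in early 2C LINE1 ASO libraries and 1.54–1.75 in early 2C RC libraries. No library at 4C reached the spread of any library at early 2C. The highest subunit exceeded the lowest by 12.3, 15.2 and 15.3 times in CPM per kilobase in 4C RC libraries, between Psmd7 and Psma2. In early 2C RC libraries it exceeded the lowest by 236, 172 and 283 times, between Psmd4 and Psmd13. The median subunit had 68.6–81.2 CPM per kilobase in 4C RC libraries, against 24.6–33.4 CPM per kilobase in early 2C RC libraries. At early 2C, Psmd13, Psmb5, Psma3, Psmb1, Psmd14 and Psmb4 had group means of 1.05, 2.25, 6.48, 6.67, 7.49 and 8.12 CPM per kilobase in RC embryos, and each was below every other constitutive subunit. The lowest next to them was Psma5 at 14 CPM per kilobase. The same 6 genes had group means between 39.5 and 94.4 CPM per kilobase in 4C RC embryos. They were picked as the lowest at early 2C from these same values, so nothing is read from their rise. The spread was not computed for other sets of genes, and its narrowing is not read as particular to these subunits. Values per kilobase rest on GENCODE M21 exon lengths and were not corrected for the part of a transcript that the kit covers.

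**Figure D4:**
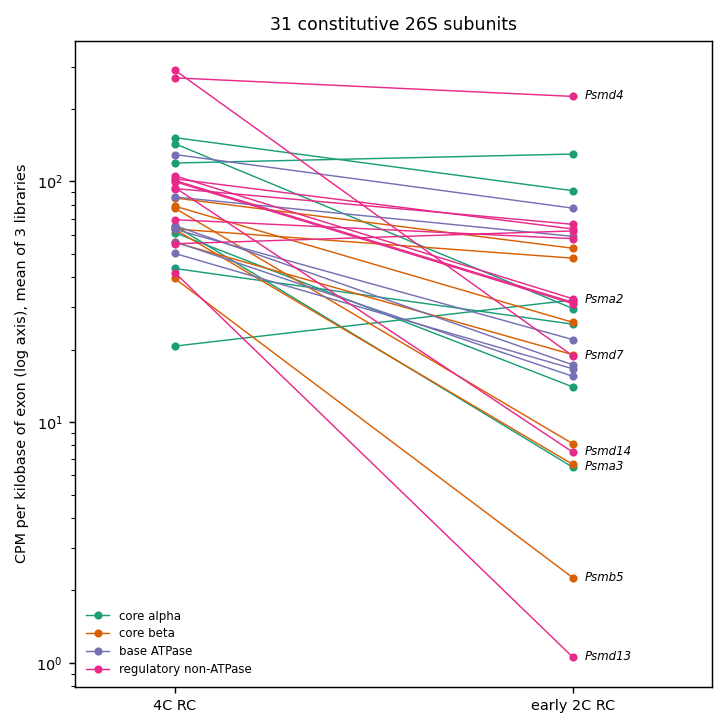
CPM per kilobase of exon (log axis, mean of 3 libraries) of the 31 constitutive core, base and lid subunits in 4C RC embryos (left) and early 2C RC embryos (right), 1 line per gene. The lines fan out to the right, where Psmd13 and Psmb5 lie lowest at 1.05 and 2.25 and Psmd4 highest at 226.

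Genes that work with the proteasome were called in both directions at 4C in RC embryos, as were all genes (36.1% higher and 36.6% lower of all tested, and 33.1% and 42.3% of those that passed in the early 2C libraries), and nothing is read from their counts. Of proteasome partners outside the symbol rule, 11 of 13 were in the tables, and 6 were higher and 4 lower. Akirin2, which brings proteasomes into the nucleus, had 85.5, 93.5 and 97.7 CPM in 4C RC embryos, against 637, 678 and 712 CPM in early 2C RC embryos, and all early 2C libraries were several times higher. AI314180, the mouse row for the proteasome adaptor Ecm29, likewise fell (log2 fold change -2.49, SE 0.135, edgeR adjusted p = 1.89e-10), and the ubiquitin receptor Adrm1 was higher (log2 fold change 2.51, SE 0.170, edgeR adjusted p = 2.29e-09). Of 9 shuttle factors and deubiquitinases, 4 were higher and 4 lower, among them the proteasome-bound deubiquitinase Usp14 at 2.28 and the shuttle factors Rad23b and Ubqln1 at -1.16 and -1.34. The segregase Vcp and its cofactors were 6 higher and 4 lower of 10, led by Faf2 at 5.55, Ubxn1 at 4.94 and Vcp itself at 2.56.

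The Nfe2l1 pathway, which induces proteasome genes when proteasome activity is short, had 6 genes higher and 4 lower at 4C in RC embryos of the 12 that passed in the early 2C libraries, beside 33.1% and 42.3% of all such genes. Its member Maff passed only through the 4C libraries. Nfe2l1 itself had 255, 240.0 and 292 CPM in 4C RC embryos, against 477, 434 and 470.1 CPM in early 2C RC embryos and was lower (log2 fold change -0.81, SE 0.134, edgeR adjusted p = 5.33e-05). Ngly1, the glycanase that processes the Nfe2l1 protein, had 4.84, 6.92 and 7.89 CPM in 4C RC embryos, against 65.9, 66.9 and 61.5 CPM in early 2C RC embryos, also lower (log2 fold change -3.30, SE 0.283, edgeR adjusted p = 3.52e-08). Bach1, a repressor at antioxidant response elements, and Mafk, a partner of these factors, were higher, with log2 fold changes of 4.62 and 3.16. Of 11 class I antigen processing and interferon regulators, 9 passed in the early 2C libraries, and 5 of these were higher and 3 lower. Erap1 and Tap1 passed only through the 4C libraries. Irf1 had 0.978, 1.46 and 2.90 CPM in 4C RC embryos, against 76.7, 89.6 and 54.3 CPM in early 2C RC embryos, and it was lower (log2 fold change -5.35, SE 0.401, edgeR adjusted p = 7.31e-09). The peptide trimmer Erap1 had 6.01, 11.7 and 10.99 CPM in 4C RC embryos, against 0.127, 0 and 0 CPM in early 2C RC embryos, and Irf9 was higher with a log2 fold change of 3.61.

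The second question was whether embryos with the LINE1 ASO differed from those with the RC ASO at the same stage. Here CPM were scaled within a stage. At early 2C, 0 of 43 members tested were called by edgeR, where 0.367% of 13625 genes were (0.272% higher and 0.0954% lower). Of the 43 members, 6 had an unadjusted p under 0.05, against 8.84% of all genes. DESeq2 called 1 member, Psmd4. The members' median log2 fold change was -0.10, against -0.01 over all genes. Psmd4 had 177, 193 and 231 CPM in LINE1 ASO embryos, against 234, 338 and 259 CPM in RC embryos. All LINE1 ASO values lay below all RC values (log2 fold change -0.47, SE 0.125, edgeR adjusted p = 0.152). Its adjusted p fell below 0.05 in 4 of 14 alternatives and ran from 0.00114 to 0.893 over them. Psmb5 had 0.157, 0.660 and 0.640 CPM in LINE1 ASO embryos, against 1.43, 3.16 and 0.975 CPM in RC embryos, low in both and without overlap (log2 fold change -1.96, SE 0.680, edgeR adjusted p = 0.332). Psmd6 had 25.8, 24.0 and 38.3 CPM in LINE1 ASO embryos, against 39.4, 45.0 and 35.4 CPM in RC embryos, with overlap (log2 fold change -0.44, SE 0.166, edgeR adjusted p = 0.394). The other early 2C members lay between -0.69 (Psmg4) and 1.46 (Psme2) on the log2 scale. Psme1 did not pass the filter at early 2C, with 1 count in LINE1 ASO libraries and 19 counts in RC libraries.

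At 4C, 2 of 47 members (4.26%) were called lower in LINE1 ASO embryos and 0 were called higher, where 4.53% of 14231 genes were called, 1.93% higher and 2.61% lower. The members' share of calls was thus near that of all genes. Psmd8, a lid subunit, had 43.0, 69.4 and 92.0 CPM in LINE1 ASO embryos, against 154, 153 and 167 CPM in RC embryos. The 3 LINE1 ASO libraries differed widely from each other, with replicate 3 nearest to the RC libraries, and all lay below them. The means were 68.2 ± 24.5 CPM in LINE1 ASO embryos and 158 ± 7.63 CPM in RC embryos (SD, n = 3 each; log2 fold change -1.21, SE 0.241, edgeR adjusted p = 0.0203). Psmd14, the lid deubiquitinase, had 105, 94.9 and 108 CPM in LINE1 ASO embryos, against 154, 184 and 152 CPM in RC embryos, also without overlap (log2 fold change -0.67, SE 0.173, edgeR adjusted p = 0.0468).

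Both calls were lost in most fits without 1 library, while the direction stayed the same in all 6. The log2 fold change over these fits ran from -1.53 to -0.97 for Psmd8 and from -0.75 to -0.57 for Psmd14. Psmd8 lost its call in 5 of 6 fits without 1 library (edgeR adjusted p from 0.0675 to 0.0924) and kept it without LINE1 ASO replicate 3 (adjusted p = 0.000456). Psmd14 lost its call in the same 5 fits (edgeR adjusted p from 0.0964 to 0.204), and kept it without LINE1 ASO replicate 3 (adjusted p = 0.0123). With library totals in place of TMM factors, Psmd14 had a log2 fold change of -0.49 and was not called (edgeR adjusted p = 0.101). That scaling moved the median of all genes by 0.18 on the log2 scale.

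The remaining 4C values were smaller. Psme4 had 305, 265 and 266 CPM in LINE1 ASO embryos, against 156, 205 and 214 CPM in RC embryos, higher in all 3 LINE1 ASO libraries than in any RC library, but was not called (log2 fold change 0.54, SE 0.179, edgeR adjusted p = 0.0962). It was called with library totals (log2 fold change 0.72, edgeR adjusted p = 0.0390) and in a fit of all 12 libraries (log2 fold change 0.60, edgeR adjusted p = 0.0220). Psmd12 and Psmc6 had log2 fold changes of -0.44 each without overlap and were not called (edgeR adjusted p = 0.150 and 0.191). The catalytic subunits Psmb5, Psmb6 and Psmb7 had -0.41, -0.18 and -0.38, with none called. The maternal marker sum, here scaled over all 12 libraries, was 269–366 CPM in 4C LINE1 ASO libraries, against 193–258 CPM in 4C RC libraries. Tdgf1, Nanog and Pou5f1 were lower in all 4C LINE1 ASO libraries than in any 4C RC library, and Sox2 was higher. The part of these markers in the members' 4C values was not tested.

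**Figure D5:**
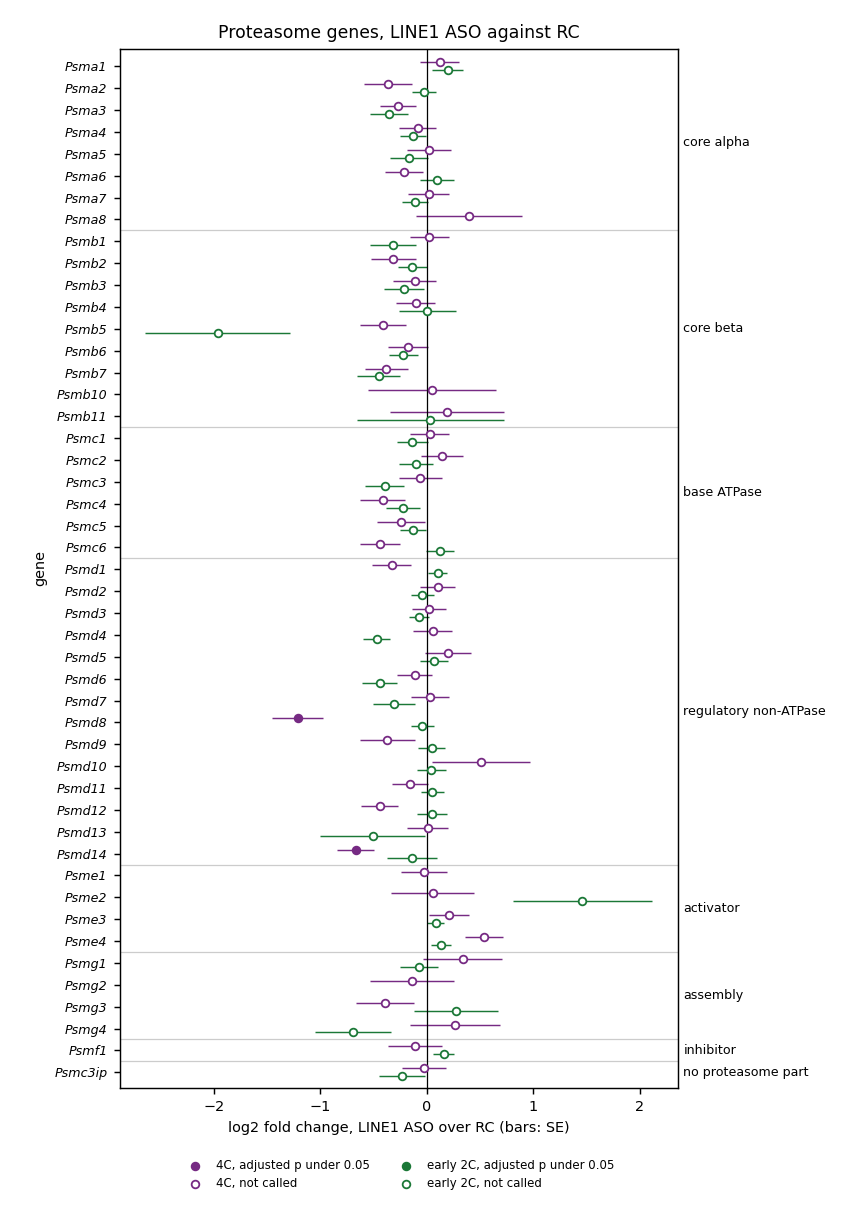
Log2 fold change of LINE1 ASO over RC for the members tested, by class, at 4C (purple, 47 genes) and early 2C (green, 43 genes), each with its SE from edgeR; filled points were called at an adjusted p under 0.05. Only Psmd8 at -1.21 and Psmd14 at -0.67, both at 4C, are filled, and most other points lie close to 0.

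Among the genes that work with the proteasome, Uchl5 and Ubxn7 were called lower at 4C in LINE1 ASO embryos by edgeR. Uchl5, a deubiquitinase of the regulatory particle, had 17.2, 17.3 and 34.2 CPM in LINE1 ASO embryos, against 53.3, 56.7 and 51.0 CPM in RC embryos and was lower, with LINE1 ASO replicate 3 nearest to the RC libraries (log2 fold change -1.23, SE 0.281, edgeR adjusted p = 0.0306). Ubxn7, a Vcp cofactor, had 57.1, 68.2 and 79.8 CPM in LINE1 ASO embryos, against 144, 117 and 138 CPM in RC embryos, lower without overlap (log2 fold change -0.96, SE 0.191, edgeR adjusted p = 0.0203). None of the 13 genes of the Nfe2l1 pathway and none of the 11 partners was called.

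The last comparison tested whether the stage effect differed between the ASO groups. No member was called, where 1.12% of 15760 genes were (0.647% higher and 0.47% lower). In edgeR 6 of 47 members (12.8%) had an unadjusted p under 0.05, against 17.5% of all genes, while DESeq2 called 2. Psmd8 came nearest. In LINE1 ASO embryos Psmd8 had 40.7, 66.1 and 82.8 CPM in 4C LINE1 ASO embryos, against 96.6, 97.7 and 99.6 CPM in early 2C LINE1 ASO embryos, so 4C was lower without overlap (log2 fold change -0.63, SE 0.205, edgeR adjusted p = 0.0117). In RC embryos it had 135, 134 and 155 CPM in 4C RC embryos, against 94.4, 114 and 92.2 CPM in early 2C RC embryos, so 4C was higher (log2 fold change 0.49, SE 0.204, edgeR adjusted p = 0.0398). The difference of the stage effects was -1.13 on the log2 scale (SE 0.289, edgeR adjusted p = 0.0690). Its adjusted p ran from 0.00469 to 0.138 over 19 alternatives and was under 0.05 in 3 of them. The RC stage effect of Psmd8 lost its call in 5 of 6 fits without 1 library, with log2 fold changes from 0.42 to 0.61. For Psme1 the difference was 4.14 (SE 1.19, edgeR adjusted p = 0.0959), which rests on the 1 and 19 counts at early 2C. For Psmb5 it was 1.65 (SE 0.624, edgeR adjusted p = 0.190).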

How the data were processed

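The authors deposited unnormalised counts per gene, in a table for each stage with a column for each library. Picogram amounts of column-purified total RNA went into a stranded SMARTer pico-input library kit and were sequenced as single-end reads on a HiSeq4000, per the labels' protocols. The build was mm9, per the submitters' processing notes, which also list DESeq2 1.12.3, R 3.3.0, TopHat2 2.0.9 and Trim Galore 0.4.0 with no role stated. Neither the counter's version nor its annotation or use of strand is given in the sources used here.

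Counts were tested in edgeR 4.0.16 (R 4.3.3) with filterByExpr, TMM factors and robust quasi-likelihood fits, with p-values adjusted over all genes by Benjamini-Hochberg. ASO comparisons used the 6 libraries of a stage. Stage comparisons and the interaction used all 12. The fits were tested on simulated data. CPM use TMM-scaled totals of the libraries fitted. Exon lengths come from GENCODE M21 (22804 genes matched, all 49 members). Alternatives were DESeq2 1.42.0 with its own size factors, those factors in edgeR, library totals, no filter, at least 10 counts, a replicate block, no robust shrinkage, other sets of libraries and leaving out each library. Counting intervals cover counting error only, since PCR copies are not independent molecules. Replicates of a group differed by more than counting noise (chi-square per degree of freedom 14.7 to 86.8), so none was merged.

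The members and gene lists were chosen with earlier results of these data known. Members named are the catalytic subunits and their alternatives, Psma7, Psma8, Psmc1, Psmd4, Psmd14, the Psme and Psmg genes, Psmf1, Psmc3ip and, per comparison, up to 6 called members per direction with the largest change and a mean of at least 50 counts, or the 3 with the smallest p where none was called. The lists give up to 3 called genes with the smallest p, and results for some listed genes are not reported here. Nfe2l1, Psma2, Psmc4, Psmc5, Psmd8 and other members outside this rule were chosen after their values were seen.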

Additional observations from a re-analysis of the deposited data

How the results depend on the processing

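No member's direction reversed in any of the 14 alternative fits for a called change. The subtraction of the length and GC trend is not among these fits. It changed the sign of Psmb6 in RC embryos, and of Psmb6, Psmc5, Psmd3 and Psmd4 in LINE1 ASO embryos. Of the 40 members called between the stages in RC embryos, 37 kept the call in all 14 alternatives, and 36 of 40 did in LINE1 ASO embryos. The exceptions were Psmb11, Psmc5 and Psmd8 in both, and Psme2 in LINE1 ASO embryos. Without 1 library, the count of called members ran from 38 to 40 in RC embryos and from 37 to 40 in LINE1 ASO embryos. For LINE1 ASO against RC at early 2C it was 0, and 1 with DESeq2 and with no low-count filter, with a range of 0 to 1 without 1 library (1 without LINE1 ASO replicate 3). At 4C it was 2, with a range of 0 to 3 without 1 library (3 without LINE1 ASO replicate 3, 0 without any other), and the genes called over all ranged from 4 to 2126, against 645. For the interaction it was 0, and 2 with DESeq2, 1 with no low-count filter, and 0 to 1 without 1 library (1 without 4C LINE1 ASO replicate 3 or early 2C RC replicate 2). The cause was not tested.

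With the replicate number as a block, 1 member was called at early 2C (Psmd4, edgeR adjusted p = 0.0484), 2 at 4C, 40 in each stage comparison and 0 for the interaction. The numbers give no pairing in the labels, and the correlations of same-numbered libraries ran from -0.089 to 0.210. Library totals in place of TMM moved the median of all genes by 0.191 and 0.335 on the log2 scale in the RC and LINE1 ASO stage comparisons. Under that scaling the stage change of Psmd8 in LINE1 ASO embryos was -0.29 (edgeR adjusted p = 0.214). Psma8, Psmb10 and Psmb11, with few counts, and Psmb8 and Psmb9, which were not tested, are limited by depth.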
